A study of Mus musculus with 12 samples.

Results

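The comparison described here sets KY-2 cells that carry a Myb vector against KY-2 cells that carry the vector with green fluorescent protein (GFP) alone. It takes 5 of the 12 arrays of the study, 3 with Myb and 2 with GFP, chosen by the cell line and vector in their labels. KY-1 and KY-2 are mouse natural killer (NK) cell lines of genotype p53KO, and every array, controls included, came from cells with that genotype kept in 200 U/mL human IL-15. The control vector encodes GFP, and the other encodes GFP-P2A-FLAG-Myb, in which GFP is followed by a self-cleaving peptide and FLAG-tagged Myb. GFP-positive cells were sorted, and total RNA was labelled with biotin and hybridised to single-colour Affymetrix arrays, per the labels. The question, as the title of the study frames it, is what c-Myb does to NK cells.

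Myb is a DNA-binding transcription factor of early blood cells. It binds short AAC-containing sites, works with the coactivators p300 and CBP, and is needed for definitive blood formation and for early stages of the lymphoid lineages. Its level falls as many lymphoid cells mature. NK cells are innate lymphocytes that depend on IL-15, kill target cells with perforin and granzymes, and secrete interferon gamma and the chemokines Ccl3, Ccl4, Ccl5 and Xcl1.

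KY-2 is 1 cell line, so the 5 arrays describe this line and not NK cells at large. The labels do not tell whether its replicates came from separate cultures, so the p-values rest on a spread between samples that may be technical. Array medians lay between 5.33 and 5.39 on the log2 scale, and precision is limited by how few arrays there are. Of 15 NK identity genes, 14 had a mean of at least 7 log2 in KY-2, among them Nkg7, Gzmb, Klrd1 and Il2rb. The exception was Ncr1, the NK receptor NKp46, at a GFP mean of 5.43 and a Myb mean of 5.34. Of markers of other blood cells, 0 of 15 myeloid, 1 of 14 B cell, 1 of 16 mast cell and basophil, 1 of 11 erythroid and megakaryocyte and 5 of 15 T cell genes reached that level. In bulk RNA, fewer cells with a transcript and less of it per cell cannot be told apart.

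Myb itself lay just below the arrays' median in the control cells of this line. It read 5.0 and 5.10 in GFP replicates 1 and 2 and 9.80, 9.67 and 9.75 in Myb replicates 1 to 3, a difference of 4.69 ± 0.08 (SE; log2), or 25.7-fold, with an adjusted p of 1.06e-10 by limma. In KY-1, the GFP cells stood at 7.99 and the Myb vector added 1.58 ± 0.08, so the arrays with the Myb vector reached similar values in both lines from different starting levels. The probe set does not separate the vector's Myb from the cell's own where it reads coding sequence, and its position within the gene was not examined.

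Across 19938 genes, 565 passed an adjusted p of 0.05 (limma, Benjamini-Hochberg over all genes), which is 2.83% of those tested. Of these, 256 were higher with Myb (1.28%) and 309 were lower (1.55%). A gene that passed is referred to as called, and all log2 differences are Myb minus GFP with the SE of the model. Changes were small for most called genes: the median size was 0.58 log2, and 140 higher and 142 lower genes changed by at least 1.5-fold. At 2-fold the counts were 51 higher and 38 lower, and at 4-fold they were 13 higher and 2 lower. The large changes thus lay mainly on the higher side, while small changes lay mainly on the lower side. For each of the 565 the GFP arrays and the Myb arrays did not overlap, which was true of 31.0% of all tested genes. An unadjusted p under 0.05 by limma was found for 2630 of the 19938 genes. Counts in gene lists are to be read beside these values over all genes. They also depend on brightness: with only the 9553 genes of at least 6 log2 in a group, 876 were called.

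**Figure D1:**
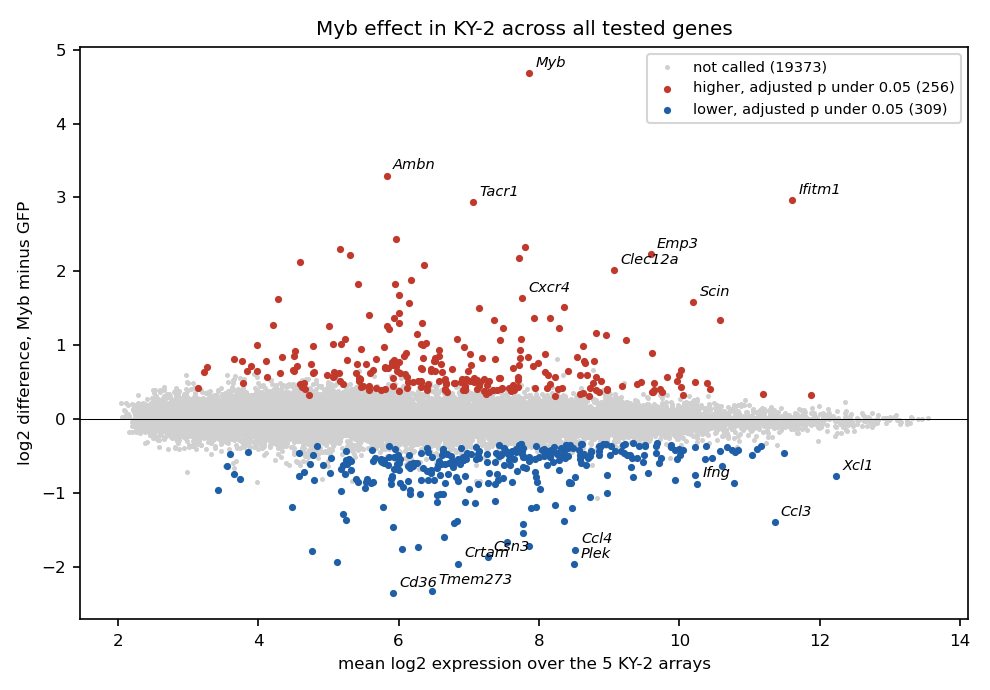
Each point is 1 gene, with its mean log2 expression over the 5 KY-2 arrays on the x axis and the log2 difference, Myb minus GFP, on the y axis. The 256 higher genes (red) reach 4.69 for Myb, whereas the 309 lower genes (blue) end at -2.36 for Cd36, and grey points are the genes that were not called.

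The count depends on which arrays enter. Its variance estimate is shared with the KY-1 arrays, and with the 5 KY-2 arrays alone 346 genes were called. There are only 2 arrays of the control vector. Without GFP replicate 1, 182 genes were called, 102 higher and 80 lower, and 178 of them were among the 565. Without GFP replicate 2 the count was 284, and without any 1 of the Myb arrays it was 367 to 379. Leaving out a GFP array leaves 1 control sample in KY-2, which is then assumed to vary like the other groups. Of 140 called genes named in the text or drawn from the gene lists, 71 kept the call whichever array was left out and 66 lost it without GFP replicate 1. For the gene groups described here, the genes that lost the call are named with the highest adjusted p over the 5 fits.

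The largest increases were those of genes with varied roles. Ambn, which encodes the enamel matrix protein ameloblastin, read 3.69 and 4.01 in the GFP arrays and 7.03, 7.16 and 7.26 in the Myb arrays. Its difference of 3.30 ± 0.12, or 9.82-fold, was exceeded only by that of Myb itself (adjusted p = 6.98e-08). Tacr1, the receptor for the neuropeptide substance P, read 5.40 and 5.20 against 8.29, 8.21 and 8.24. It rose by 2.94 ± 0.09, or 7.68-fold (adjusted p = 2.36e-08). Trps1, a GATA-type zinc finger protein that represses transcription, read 4.93 and 5.30 with GFP and 7.21, 7.15 and 7.25 with Myb, with a difference of 2.09 ± 0.19. Over 17 other settings of the processing and arrays, the difference of Trps1 lay between 1.43 and 2.28. Ambn, Tacr1, Trps1 and Myb were the only called genes that went from a GFP mean under 6 to a Myb mean of at least 7. That holds for the brightest probe set of each gene. For all 4, every Myb array lay above 7 and both GFP arrays lay below 6.

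Other genes rose from levels above the arrays' median. Ifitm1, an interferon-induced membrane protein, read 9.83 and 9.82 in the GFP arrays and 12.83, 12.78 and 12.77 in the Myb arrays, with a difference of 2.97 ± 0.08 (7.83-fold, adjusted p = 1.17e-08). Emp3, an epithelial membrane protein family member, read 8.17 and 8.33 against 10.50, 10.52 and 10.44 and rose by 2.23 ± 0.11. Mgst2, a microsomal glutathione transferase that makes leukotriene C4, read 6.28 and 6.53 against 8.73, 8.72 and 8.75 and rose by 2.33 ± 0.12. In each, the arrays of 1 vector lay close together and the gap between vectors was above 2. Adgrg3, an adhesion-type G protein-coupled receptor, read 6.55 and 6.25 against 8.59, 8.60 and 8.57 and rose by 2.18 ± 0.09. Clec12a, an inhibitory C-type lectin receptor, read 7.79 and 7.92 against 9.86, 9.94 and 9.83 and rose by 2.02 ± 0.09.

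Cxcr4, the receptor for the chemokine Cxcl12 that holds blood cells in the bone marrow, read 6.85 and 6.71 in the GFP arrays and 8.48, 8.47 and 8.29 in the Myb arrays. It rose by 1.64 ± 0.12, or 3.11-fold (adjusted p = 1.37e-05). Among the 15 largest increases of genes whose brighter vector had a mean of at least 7, the smaller ones were those of Scin, an actin-severing protein (1.58), Igfbp7, a secreted binding protein for insulin-like growth factors (1.51), P2rx4, an ATP-gated ion channel (1.51), Sema4a, a semaphorin (1.37), and Heg1, a membrane protein (1.36). All 15 were called whichever KY-2 array was left out, with a highest adjusted p of 0.00365. Among genes with a mean of at least 10 log2, the largest increases were those of Ifitm1, Cmtm7 (1.35), Scin, Tuba4a (0.67) and Myl4 (0.51). The call of Tuba4a was lost without GFP replicate 1 (adjusted p = 0.0596), and that of Myl4 without either GFP array (up to 0.0838).

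**Figure D2:**
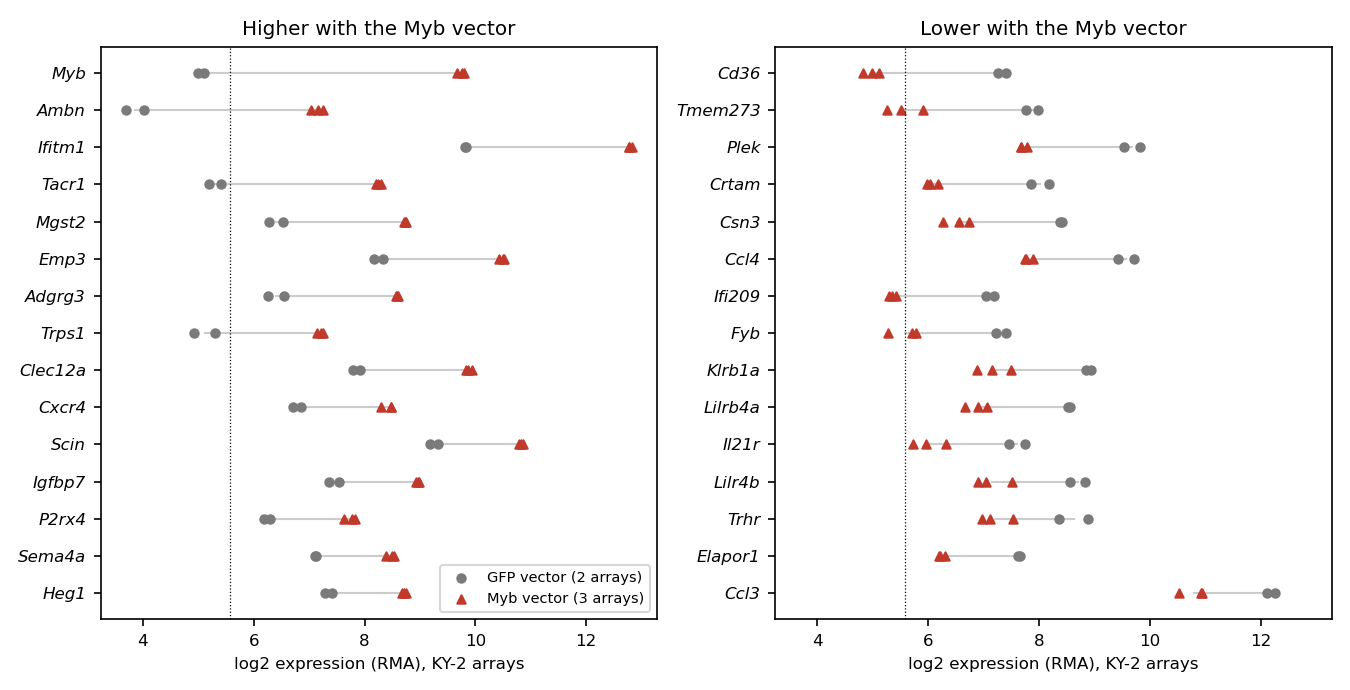
Log2 expression on each of the 5 KY-2 arrays is shown for the 15 largest called increases (left) and the 15 largest called decreases (right) among genes whose brighter vector had a mean of at least 7, with GFP arrays as grey circles, Myb arrays as red triangles and a line joining the group means. The dotted line is the middle array's median over all tested genes, 5.58. In every row the circles and triangles are separate, which was a condition for choosing these genes.

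Promoter sequence was examined for the letters that Myb is known to bind. The 4 sequences printed here belong to genes picked by hand among those that rose. They are Ambn and Tacr1, which came up from a low level, and Cxcr4, which has been described as a Myb target. The last is Ifitm1, with the largest rise from a high level. Each spans 250 bases before to 50 bases after the RefSeq start of the gene in GRCm38.p6, 5′ to 3′ on the gene's strand. Capitals mark the letters AACNG on either strand, so that CNGTT is also in capitals.
Ambn chr5:88455741-88456040 (+ strand): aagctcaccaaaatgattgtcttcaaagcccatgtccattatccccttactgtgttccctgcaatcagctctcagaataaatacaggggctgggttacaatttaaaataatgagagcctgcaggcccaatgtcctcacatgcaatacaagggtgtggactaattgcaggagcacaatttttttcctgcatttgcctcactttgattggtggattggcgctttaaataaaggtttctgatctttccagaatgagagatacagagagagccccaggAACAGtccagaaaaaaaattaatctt
Tacr1 chr6:82402225-82402524 (+ strand): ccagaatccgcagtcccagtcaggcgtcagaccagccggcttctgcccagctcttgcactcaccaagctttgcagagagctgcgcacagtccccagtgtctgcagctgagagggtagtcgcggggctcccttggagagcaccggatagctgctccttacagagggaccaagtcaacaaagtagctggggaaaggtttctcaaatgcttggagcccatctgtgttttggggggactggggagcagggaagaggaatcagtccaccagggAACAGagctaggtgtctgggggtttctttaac
Cxcr4 chr1:128592250-128592549 (- strand): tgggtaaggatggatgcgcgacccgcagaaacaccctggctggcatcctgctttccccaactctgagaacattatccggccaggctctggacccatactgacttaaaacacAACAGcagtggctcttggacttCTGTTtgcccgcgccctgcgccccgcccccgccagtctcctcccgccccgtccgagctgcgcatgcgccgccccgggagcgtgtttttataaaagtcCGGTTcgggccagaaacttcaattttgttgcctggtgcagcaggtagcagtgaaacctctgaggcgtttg
Ifitm1 chr7:140967826-140968125 (+ strand): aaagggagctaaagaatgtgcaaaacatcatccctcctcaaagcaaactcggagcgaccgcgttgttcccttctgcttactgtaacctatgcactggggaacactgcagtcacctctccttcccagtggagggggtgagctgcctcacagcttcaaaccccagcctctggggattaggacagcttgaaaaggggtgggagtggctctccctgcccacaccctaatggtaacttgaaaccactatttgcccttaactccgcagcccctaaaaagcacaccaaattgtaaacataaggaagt

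Ambn and Tacr1 held 1 match each, Cxcr4 held 3 and Ifitm1 held 0. Promoter windows were matched for 206 of the 256 higher genes and 237 of the 309 lower genes. AACNG stood in 84.0% of the former, 83.1% of the latter and 81.4% of the 15563 tested genes with a window, so its presence hardly separates these sets. The stricter AACGG stood in 21.4% of higher, 20.3% of lower and 22.1% of all tested genes. TTTC repeated with any 2 bases between the copies, on either strand, the core letters bound by interferon regulatory factors, stood in 15 of the 206 higher genes (7.28%), in 8 of the 237 lower genes (3.38%) and in 3.89% of all tested genes. Ifitm2, Bst2, Clec4d, Etv6 and Calhm6 were among those 15, while Ifitm1 was not, and Ddx58, Stat4, Gstt1 and Serpinb9 were among the 8 lower genes. A match describes letters in a 300-base window and not a bound site.

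Among the genes that fell, Cd36, a receptor that takes up fatty acids and oxidised lipids, changed most. It read 7.40 and 7.26 in the GFP arrays and 4.82, 5.11 and 4.99 in the Myb arrays, and fell by 2.36 ± 0.10 (adjusted p = 5.1e-07). Plek, which encodes pleckstrin, a substrate of protein kinase C, read 9.83 and 9.53 against 7.79, 7.68 and 7.67 and fell by 1.97 ± 0.10 (adjusted p = 1.02e-06). Crtam, an activating receptor of NK and cytotoxic T cells, read 8.18 and 7.86 against 6.18, 5.98 and 6.03 and fell by 1.96 ± 0.12. Each of these 3 genes lay lower on all Myb arrays than on either GFP array by more than 1 log2 unit. Cd36, Tmem273, Ifi209 and Fyb were the only called genes that went from a GFP mean of at least 7 to a Myb mean under 6.

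Tmem273, a membrane protein, read 7.99 and 7.76 against 5.25, 5.90 and 5.51 and fell by 2.32 ± 0.16. Ifi209, a member of the interferon-inducible PYHIN family, read 7.19 and 7.03 against 5.28, 5.42 and 5.34 and fell by 1.76 ± 0.16. Fyb, the adaptor ADAP that links receptor signals to integrins, read 7.23 and 7.40 against 5.26, 5.72 and 5.78 and fell by 1.73 ± 0.19. Myb replicate 1 was the lowest array for Tmem273, Ifi209 and Fyb. Csn3, which encodes the milk protein kappa-casein, read 8.41 and 8.38 against 6.27, 6.55 and 6.73 and fell by 1.87 ± 0.13. Trhr, the receptor for thyrotropin-releasing hormone, fell by 1.42 ± 0.17 and Elapor1 by 1.40 ± 0.09. The 15 largest decreases of genes above that level were all called whichever KY-2 array was left out (highest adjusted p 0.0203).

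Chemokine ligand genes that were called all fell. Of 13 chemokine ligand genes, 5 fell and 0 rose, against 1.55% lower and 1.28% higher over all genes, and the list's median difference was -0.197 against 0.0108 over all tested genes. Ccl4 read 9.72 and 9.42 in the GFP arrays and 7.89, 7.75 and 7.77 in the Myb arrays and fell by 1.77 ± 0.10 (adjusted p = 2.19e-06). Ccl3 read 12.26 and 12.12 against 10.92, 10.53 and 10.94 and fell by 1.39 ± 0.12. Xcl1, which attracts cross-presenting dendritic cells, read 12.66 and 12.74 against 11.93, 11.92 and 11.92 and fell by 0.78 ± 0.09. The other 2 were Ccl1 (-1.12) and Ccl5 (-0.86). Ccl5 read 11.51 and 11.08 against 10.66, 10.05 and 10.60, the widest spread within a vector of the 5, and its call was lost without GFP replicate 1 (adjusted p = 0.287). The other 4 calls held in all 5 fits. With Ccl3, Xcl1, Ccl5 and Ifng, the largest decreases among genes with a mean of at least 10 included Pdcd4, an inhibitor of translation (-0.76), whose call also held.

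Ifng, which encodes interferon gamma, read 10.88 and 10.66 in the GFP arrays and 9.91, 9.84 and 9.93 in the Myb arrays and fell by 0.87 ± 0.09 (adjusted p = 0.00035). It was the only 1 of 22 secreted cytokine genes that fell. Over all genes 1.28% were called higher and 1.55% lower. Il18 (1.29), Il10 (1.27) and Il6 (0.49) rose, from GFP means of 5.55, 3.45 and 4.35, and the Myb mean of Il10 was 4.73. Il6 and Il10 lay below the arrays' median with either vector. The call of Il6 was lost without any 1 array (adjusted p up to 0.246), and the calls of Ifng, Il18 and Il10 held throughout. Of 26 TNF family ligands and receptors, Tnfsf9, the ligand of 4-1BB, rose by 0.72 ± 0.10 and Tnfsf11, also called RANKL, by 0.44 ± 0.09. Fasl, the death ligand of killer cells, fell by 0.54 ± 0.10. The call of Tnfsf11 was lost without any 1 array (up to 0.333) and that of Fasl without GFP replicate 1, Myb replicate 1 or Myb replicate 3 (up to 0.227).

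Genes of the killing machinery changed in part. Of 24 granzyme and lytic granule genes 7 fell and 0 rose, against 1.55% lower and 1.28% higher over all genes. The list's median difference was -0.174. Prf1, which encodes the pore-forming protein perforin, read 10.49 and 10.37 in the GFP arrays and 9.50, 9.65 and 9.69 in the Myb arrays and fell by 0.82 ± 0.09 (adjusted p = 0.000484). Gzmd fell by 1.47 ± 0.09 and Gzmf by 0.97 ± 0.13, while Gzmb, the main granzyme of activated NK cells, differed by -0.05 ± 0.08 (adjusted p = 0.892). Serpinb9b (-0.85), Serpinb9 (-0.60) and Serpinb6b (-0.47), of the family of intracellular granzyme inhibitors, and Ctsc (-0.36), the protease that activates granzymes, made up the rest. Prf1, Gzmd, Gzmf and Serpinb9b held in all 5 fits that left out an array, and Serpinb9, Serpinb6b and Ctsc in none (adjusted p up to 0.408). Probe sets can read near-identical members of the granzyme and Serpinb families, so which member changed is uncertain.

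The NK receptor genes that were called all fell. Among 28 receptor and ITAM adaptor genes 8 fell and 0 rose, against 1.55% lower and 1.28% higher over all genes. The list's median difference was -0.203. Its genes were bright, with a median GFP level of 9.37, and 20 of the 28 had a mean of at least 7. Klrb1a, of the NK1.1 receptor family, read 8.94 and 8.84 in the GFP arrays and 6.88, 7.15 and 7.50 in the Myb arrays and fell by 1.71 ± 0.17. Lilrb4a, an inhibitory immunoglobulin-like receptor, fell by 1.67 ± 0.15, and its neighbour Lilr4b by 1.55 ± 0.18. Cd226, the activating receptor DNAM-1, read 9.39 and 9.33 against 8.12, 8.40 and 8.38 and fell by 1.06 ± 0.10. Fcgr3, the antibody receptor CD16, fell by 0.79 ± 0.08. Crtam and these 4 genes on the list kept their calls in all 5 fits (adjusted p up to 0.0106).

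Tigit, an inhibitory receptor that shares its ligands with Cd226, fell by 0.49 ± 0.10, Cd7 by 0.46 ± 0.10 and Klrd1, the CD94 subunit, by 0.36 ± 0.08. The calls of Tigit and Klrd1 were lost without any 1 array and that of Cd7 without GFP replicate 1, Myb replicate 2 or Myb replicate 3 (adjusted p up to 0.363). Il2rb, the beta chain through which IL-15 signals, fell by 0.40 ± 0.09 and lost its call without any 1 array (up to 0.308). Prf1, Klrd1 and Il2rb were the 3 of 15 NK identity genes that fell, against 1.55% lower over all genes. In that list 0 rose, and its median difference was -0.138. Those not called included Klrk1 (-0.10), Eomes (0.07), Tbx21 (-0.39) and Nkg7 (-0.19). Of 19 checkpoint and costimulatory genes Pdcd1lg2, or PD-L2, fell (-0.57) and lost its call without any 1 array other than Myb replicate 3 (up to 0.403). Across the 15 identity genes the mean over the list lay at 9.97 and 9.84 in the GFP arrays and at 9.68, 9.70 and 9.72 in the Myb arrays. Some members of the Klr and Lilr families are near-identical, and the values of those are uncertain as to the member.

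Adaptors downstream of these receptors moved both ways. Of 26 proximal signalling genes 6 fell and 2 rose, against 1.55% lower and 1.28% higher over all genes. Plek and Fyb are described above, and Pik3ap1, the adaptor BCAP, fell by 1.02 ± 0.09. Vav3, a guanine nucleotide exchange factor (-0.78), and the kinases Fyn (-0.43) and Txk (-0.36) also fell. Lat2 (0.65) and Lat (0.50), both transmembrane adaptors, rose. Sh2d1a, the adaptor SAP of the SLAM receptors, read 3.33 and 3.29 in the GFP arrays and 4.95, 4.80 and 5.06 in the Myb arrays and rose by 1.62 ± 0.10, below the arrays' median with either vector, the only rise among 13 genes of SLAM receptors and their adaptors. With Fyn, the list had 3 that fell: Sh2d1b1, or EAT-2, a relative of Sh2d1a, fell by 0.45 ± 0.10, and the receptor Slamf7 by 0.36 ± 0.08. Plek, Fyb, Pik3ap1, Lat2 and Sh2d1a held in all 5 fits. Vav3 lost its call without GFP replicate 1 (adjusted p = 0.0857), Lat without either GFP array (up to 0.0996), Fyn without any 1 array other than Myb replicate 3, and Txk, Sh2d1b1 and Slamf7 without any 1 array (up to 0.421).

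Immediate early genes, the first to answer receptor signals, were lower as far as they were called. Of 27 such genes 5 fell and 0 rose, against 1.55% lower and 1.28% higher over all genes, with a median difference of -0.149. Of the 27, 12 had an unadjusted p under 0.05 by limma, as did 2630 of all 19938 tested genes. Egr2 read 7.81 and 7.43 in the GFP arrays and 6.55, 6.32 and 6.61 in the Myb arrays and fell by 1.13 ± 0.15 (adjusted p = 0.00149). Egr1 read 7.02 and 6.80 against 6.17, 6.0 and 6.09 and fell by 0.83 ± 0.10. Nr4a2, an orphan nuclear receptor, read 7.05 and 7.05 against 6.33, 6.43 and 6.10 and fell by 0.76 ± 0.10. Jun fell by 0.82 ± 0.11 and Btg2, an antiproliferative gene, by 0.66 ± 0.12, and both calls were lost without GFP replicate 1 (adjusted p = 0.0546 and 0.153), while Egr1, Egr2 and Nr4a2 held in all 5 fits.

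Feedback regulators of these pathways gave calls in both directions. Of 32 MAPK and receptor feedback genes Dusp10 (-0.47), Ubash3b (-0.40) and Ptpn22 (-0.37) fell and Rasgrp2 (0.98) rose, with a list median of -0.133. Over all genes 1.55% were lower and 1.28% higher. Rasgrp2 read 4.80 and 5.62 in the GFP arrays and 6.30, 6.14 and 6.10 in the Myb arrays, and the gap between its GFP arrays was larger than that to the nearest Myb array. All 4 calls were lost without at least 1 array: Rasgrp2 without GFP replicate 1, Myb replicate 1 or Myb replicate 2, Dusp10 without any 1 array other than Myb replicate 2, and Ubash3b and Ptpn22 without any 1 (adjusted p up to 0.404). Of 21 JAK-STAT genes Stat4, which relays IL-12 signals, fell by 0.65 ± 0.08, as did Csn3, a gene induced by STAT5 in the mammary gland. Of 32 interleukin receptor genes Il21r fell by 1.60 ± 0.16 and Il17ra rose by 0.94 ± 0.10, and these 2 and Stat4 held in all 5 fits. Il27ra fell by 0.51 ± 0.10, a call that held without Myb replicate 1 and was lost without any 1 of the other 4 arrays (up to 0.246).

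**Figure D3:**
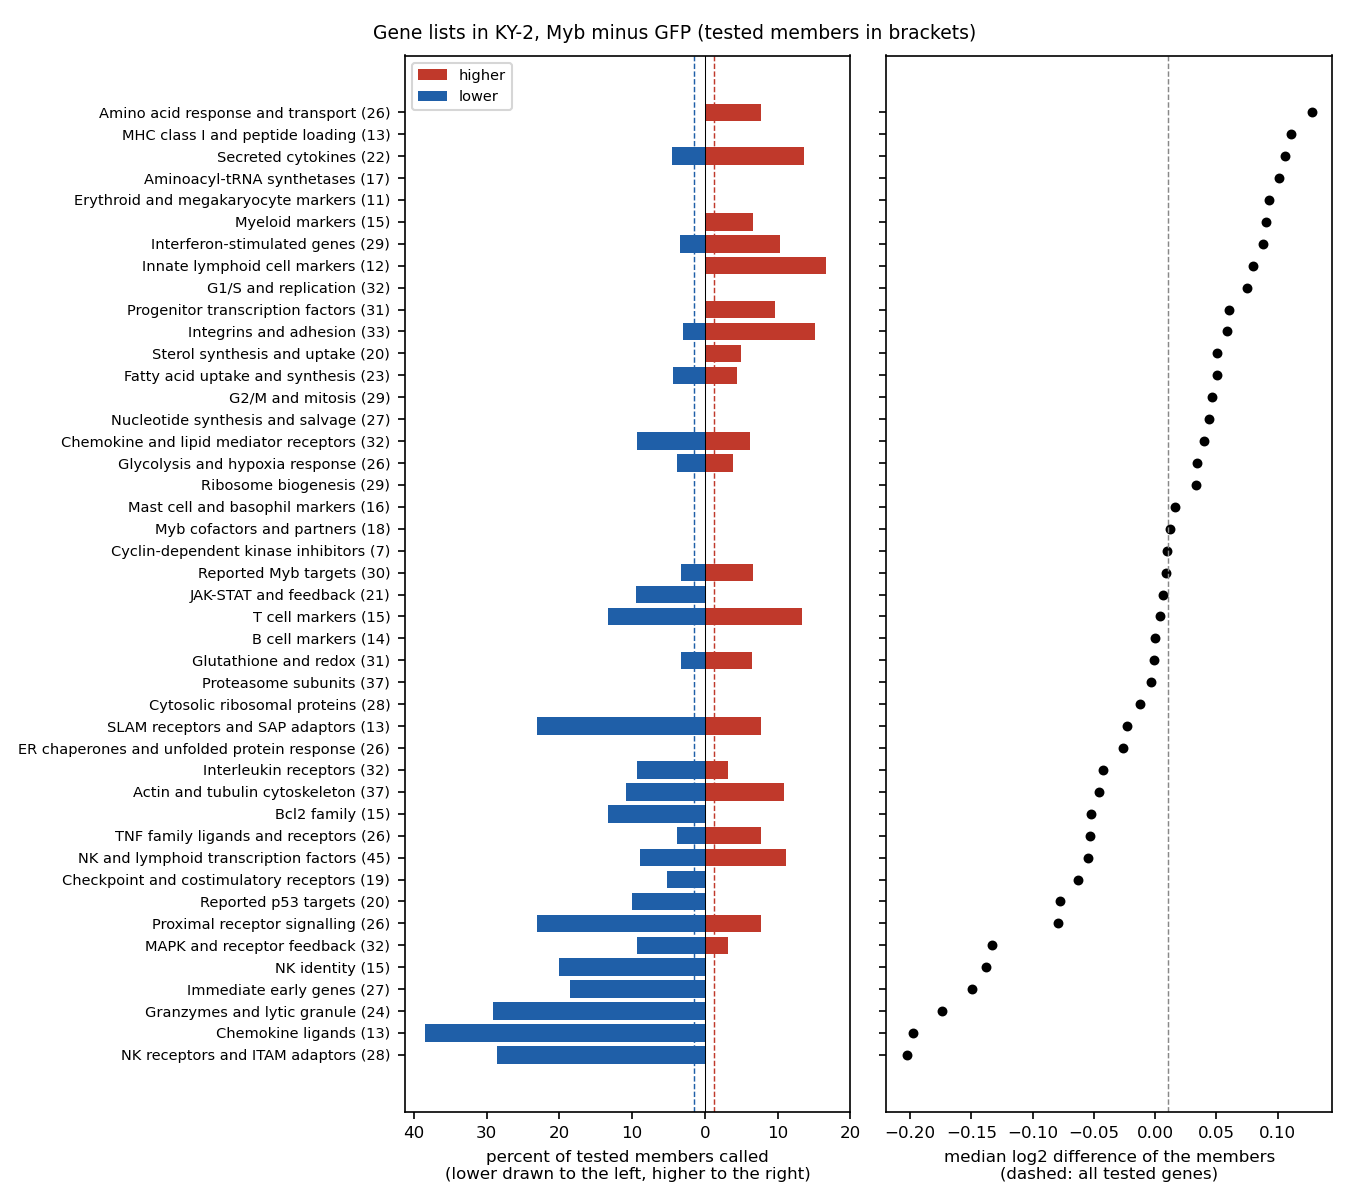
The left panel gives, for each of 44 gene lists with its number of tested members in brackets, the percent of members called lower (blue, to the left) and higher (red, to the right), with dashed lines at the values over all genes, 1.55% and 1.28%. The right panel gives the list's median log2 difference, Myb minus GFP, with a dashed line at 0.0108, the median of all genes. Chemokine ligands, NK receptors and lytic granule genes lie at the lower end, and some genes stand in more than 1 list.

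Transcription factors of lymphocytes changed in both directions. Of 45 NK and lymphoid factors 5 rose and 4 fell, against 1.28% higher and 1.55% lower over all genes. Ikzf3, or Aiolos, read 9.04 and 8.86 in the GFP arrays and 8.11, 7.93 and 8.22 in the Myb arrays and fell by 0.87 ± 0.11. Ikzf2, or Helios, of the same Ikaros family, read 6.05 and 6.03 against 6.83, 6.95 and 6.71 and rose by 0.79 ± 0.09. Members of 1 family thus moved in opposite directions, as Ikzf4 (0.56) rose too. Gata3, needed for T cells and innate lymphoid cells, read 5.51 and 5.40 against 6.25, 5.96 and 6.54 and rose by 0.79 ± 0.14.

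Rora (0.52) and Id3 (0.40) also rose, and Ets1 (-0.79), Zbtb32 (-0.61) and Stat4 fell. Of the 9, Ikzf2, Ikzf3 and Stat4 held in all 5 fits. Ets1 and Zbtb32 lost the call without GFP replicate 1 (adjusted p = 0.103 and 0.0771), Gata3, Ikzf4 and Rora without either GFP array (up to 0.131), and Id3 without any 1 array other than Myb replicate 1 (up to 0.189). Among 31 progenitor factors 3 rose, Myb itself included, and 0 fell, against 1.28% higher and 1.55% lower over all genes. Erg, a regulator of blood stem cells, read 4.61 and 4.87 in the GFP arrays and 6.24, 6.04 and 6.15 in the Myb arrays. It rose by 1.40 ± 0.11 (adjusted p by limma = 3.65e-05), a call that held in all 5 fits. Etv6 rose by 0.42 ± 0.08, and its call was lost without any 1 array other than Myb replicate 1 (up to 0.172).

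Genes described elsewhere as Myb targets gave 3 calls in 30, beside 2.83% of all tested genes. Among them Cxcr4 and Gata3 rose, Bcl2l1, an inhibitor of apoptosis, fell by 0.38 ± 0.08, and 27 were not called. Of the 3, Cxcr4 alone held in all 5 fits, and Gata3 lost its call without either GFP array. By limma 8 of the 30 had an unadjusted p under 0.05, beside 2630 of all 19938 tested genes. The call of Bcl2l1 was lost without any 1 array (adjusted p up to 0.34). The list's median difference was 0.009 against 0.0108 over all genes. Of 18 Myb cofactors and partners limma called 0, with 3 at an unadjusted p under 0.05. Of 15 Bcl2 family genes Bcl2l1 and Bcl2l11, or Bim (-0.34, adjusted p up to 0.251 without 1 array), fell, so that an inhibitor and a promoter of apoptosis both stood lower. Of 20 reported p53 targets Btg2 and Sesn1 (-0.37, adjusted p up to 0.271 without 1 array) fell in this line of genotype p53KO.

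Receptors and adhesion molecules that place cells in tissue also changed both ways. Of 32 chemokine and lipid mediator receptors 2 rose and 3 fell, against 1.28% higher and 1.55% lower over all genes. Those that rose were Cxcr4 and Gpr183, the oxysterol receptor (0.70). Cxcr3, the receptor for interferon-induced chemokines, read 7.86 and 7.72 in the GFP arrays and 7.13, 6.91 and 6.73 in the Myb arrays and fell by 0.87 ± 0.11. Ptger2, a prostaglandin E receptor (-0.73), and Cxcr6 (-0.45) fell as well. Cxcr4, Cxcr3 and Ptger2 held in all 5 fits, Gpr183 lost the call without any 1 array other than Myb replicate 1 and Cxcr6 without either GFP array (adjusted p up to 0.258).

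Of 33 integrin and adhesion genes 5 rose and 1 fell, against 1.28% higher and 1.55% lower over all genes. Itga4, the alpha chain of the integrin VLA-4, read 5.03 and 5.14 in the GFP arrays and 5.68, 5.92 and 5.92 in the Myb arrays and rose by 0.75 ± 0.10. Spn, or CD43, rose by 0.65 ± 0.09, Pecam1 by 0.57 ± 0.09, Itgax, or CD11c, by 0.74 ± 0.15 and Cd82 by 0.45 ± 0.11. Itga2, the alpha chain of a collagen receptor of NK cells, fell by 0.57 ± 0.12. Itga4 and Spn held in all 5 fits with highest adjusted p of 0.0488 and 0.0497, close to the threshold. Pecam1 lost the call without GFP replicate 2 (adjusted p = 0.0722), Itgax without GFP replicate 1, Myb replicate 1 or Myb replicate 3, Itga2 without any 1 array other than Myb replicate 3, and Cd82 without any 1 array (up to 0.381).

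The cytoskeleton list held 4 genes that rose and 4 that fell among 37, against 1.28% higher and 1.55% lower over all genes. Tuba8, an alpha-tubulin, read 4.47 and 4.55 in the GFP arrays and 6.84, 6.97 and 7.02 in the Myb arrays and rose by 2.43 ± 0.12 (adjusted p = 1.02e-06). Tuba4a, described above, Tagln2 (0.41) and S100a4 (0.32) rose, and Myh10 (-0.54), Anxa1 (-0.48), Cnn2 (-0.47) and Tubb2a (-0.42) fell. Of these 8 calls, Tuba8 alone held in all 5 fits. Those of Myh10 and Anxa1 were lost without either GFP array, that of Tubb2a without GFP replicate 1 or Myb replicate 3, and those of Tagln2, S100a4 and Cnn2 without any 1 array (adjusted p up to 0.37).

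Metabolic lists gave few calls each, which are to be read beside the 2.83% called over all tested genes. The fatty acid, redox and glycolysis lists had calls in both directions, and the sterol and amino acid lists only rises. Fads2, a desaturase of fatty acids, read 8.25 and 8.15 in the GFP arrays and 8.99, 9.01 and 8.89 in the Myb arrays and rose by 0.76 ± 0.10, the only rise among 23 fatty acid genes, in which Cd36 was the only fall. Among 31 glutathione and redox genes Mgst2 and Nqo1 (0.54) rose and Gstt1, a glutathione transferase (-0.91), fell. Lss, an enzyme of cholesterol synthesis (0.46), rose among 20 sterol genes, Slc7a5 (0.49) and Asns (0.41) among 26 amino acid genes, and Bnip3 (0.83) among 26 glycolysis and hypoxia genes, where the glucose transporter Slc2a3 (-0.62) fell. Fads2 and Gstt1 held in all 5 fits. Bnip3 lost its call without GFP replicate 2 (adjusted p = 0.122), Slc2a3 without GFP replicate 1 (0.129), Nqo1 and Lss without any 1 array other than Myb replicate 1, and Slc7a5 and Asns without any 1 array (up to 0.319).

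Lists of division and protein synthesis genes held no calls in the limma model used throughout. Over all 19938 tested genes, 2630 had an unadjusted p under 0.05 by limma. In the G1/S and replication list 0 of 32 genes were called, with 4 at an unadjusted p under 0.05 and a median difference of 0.0746. In the G2/M and mitosis list 0 of 29 were called, with 3 at an unadjusted p under 0.05 and a median of 0.0466. Counts of 0 were also found for 29 ribosome biogenesis genes, 28 ribosomal protein genes and 37 proteasome genes, each with 1 gene at an unadjusted p under 0.05. For 26 ER chaperone genes the count was 0 with 2 at that p, for 17 aminoacyl-tRNA synthetases 0 with 3, for 27 nucleotide synthesis genes 0 with 6, for 7 cyclin-dependent kinase inhibitors 0 with 4, and for 13 genes of MHC class I and peptide loading 0 with 3. These counts change with the variance model and the filter: with trended moderation limma called 2 genes higher and 1 lower of the G1/S list, 1 higher of the G2/M list and 2 lower of the cyclin-dependent kinase inhibitors, and with genes of at least 6 log2 in a group 2 higher of the G1/S list, 1 higher of the nucleotide list and 2 lower of the inhibitors. Of the ribosome biogenesis, proteasome, ER chaperone and MHC class I lists, each gained 1 or 2 calls under at least 1 of these settings, while the ribosomal protein and synthetase lists stayed at 0 under both.

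Interferon-stimulated genes gave calls in both directions. Of 29 tested, Ifitm1, Ifitm2 (0.90) and Bst2, or tetherin (0.33), rose and Ddx58, the RNA sensor RIG-I (-0.49), fell, and the median was 0.0879. Over all genes 1.28% were higher and 1.55% lower. Ifitm2 read 9.22 and 8.94 in the GFP arrays and from 9.90 to 10.03 in the Myb arrays. Ifitm1 and Ifitm2 held in all 5 fits, Ddx58 lost the call without either GFP array (adjusted p up to 0.0633) and Bst2 without any 1 (up to 0.228).

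Markers of other blood cells were read beside these groups. The 15 T cell markers gave 2 genes higher, Trat1 (0.71, at a Myb mean of 3.55) and Lat, and 2 lower, Cd3d (-0.73) and Cd8a. Over all genes 1.28% were higher and 1.55% lower. Cd8a read 11.12 and 10.87 in the GFP arrays and 10.43, 10.34 and 10.29 in the Myb arrays and fell by 0.64 ± 0.10. The mean over the T cell list was 6.74 and 6.72 in the GFP arrays and 6.82, 6.70 and 6.71 in the Myb arrays, with overlap. The calls of Cd3d and Cd8a were lost without GFP replicate 1 (adjusted p = 0.0793 and 0.0837), and that of Trat1 without either GFP array (up to 0.131).

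Of the myeloid markers Clec4d, an activating C-type lectin of macrophages, read 5.09 and 5.01 in the GFP arrays and 6.88, 6.92 and 7.0 in the Myb arrays and rose by 1.88 ± 0.10, while Lyz2, Csf1r, Cd14 and Itgam lay at 3.53, 4.13, 4.09 and 4.02 with Myb, near the low end of the scale. The mean over the myeloid list, Clec4d included, was 4.28 and 4.25 in the GFP arrays and 4.46, 4.43 and 4.42 in the Myb arrays. Clec4d was the only 1 of its 15 tested genes that was called, beside 2.83% of all tested genes, and the list's median difference was 0.0908. The 14 B cell markers gave 0 calls by limma with 0 at an unadjusted p under 0.05. The 16 mast cell and basophil markers gave 0 with 4, and the 11 erythroid and megakaryocyte markers 0 with 3. Over all 19938 tested genes, 2630 had an unadjusted p under 0.05. Innate lymphoid cell markers gave Gata3 and Rora, already named. The part of other cell types in the results above was not tested beyond these values.

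The same vectors were put into KY-1, whose arrays share none with KY-2, and whether Myb had an unequal effect in the 2 lines was tested for each gene with the same limma model. That difference was called for 168 genes (0.843% of those tested), and for 88 without KY-2 GFP replicate 1 and 109 without KY-1 GFP replicate 3. In KY-1 alone 122 genes were higher and 122 lower (0.612% each). Of the 565 genes called in KY-2, 120 were called for the difference, 90 were also called in the same direction in KY-1 and 9 were called there in the opposite direction. Of the 37 genes with the largest changes, brightest signals or largest differences from KY-1, the difference was called for 26. These 37 were chosen in part for large changes in KY-2 or for a called difference, which raises that count. For Ambn the KY-1 effect was -0.02 ± 0.12 and the difference between lines 3.31 ± 0.16 (adjusted p = 5.36e-06).

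Several genes that rose in KY-2 stood higher in KY-1 cells with GFP than in KY-2 cells with Myb. Tacr1 stood at 9.73 in KY-1 with GFP against 8.24 in KY-2 with Myb, and its Myb effect differed between the lines by 2.47 ± 0.13. Adgrg3 stood at 9.25 against 8.59, Clec12a at 9.99 against 9.88, Scin at 11.15 against 10.83, Igfbp7 at 10.30 against 8.96 and P2rx4 at 8.55 against 7.74. For these 5 genes the effect was larger in KY-2 by 2.05, 1.94, 1.41, 1.33 and 1.20. Among the genes that fell, Cd36 stood at 3.39, Plek at 4.68, Crtam at 4.64 and Fyb at 3.47 in KY-1 with GFP, each below the Myb mean of KY-2. These levels are descriptions and were not tested between the lines. The genes were picked by hand, and how many of all called genes lie this way was not counted. Ambn, in contrast, lay at 3.91 in KY-1 with GFP and at 3.85 in KY-2 with GFP.

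**Figure D4:**
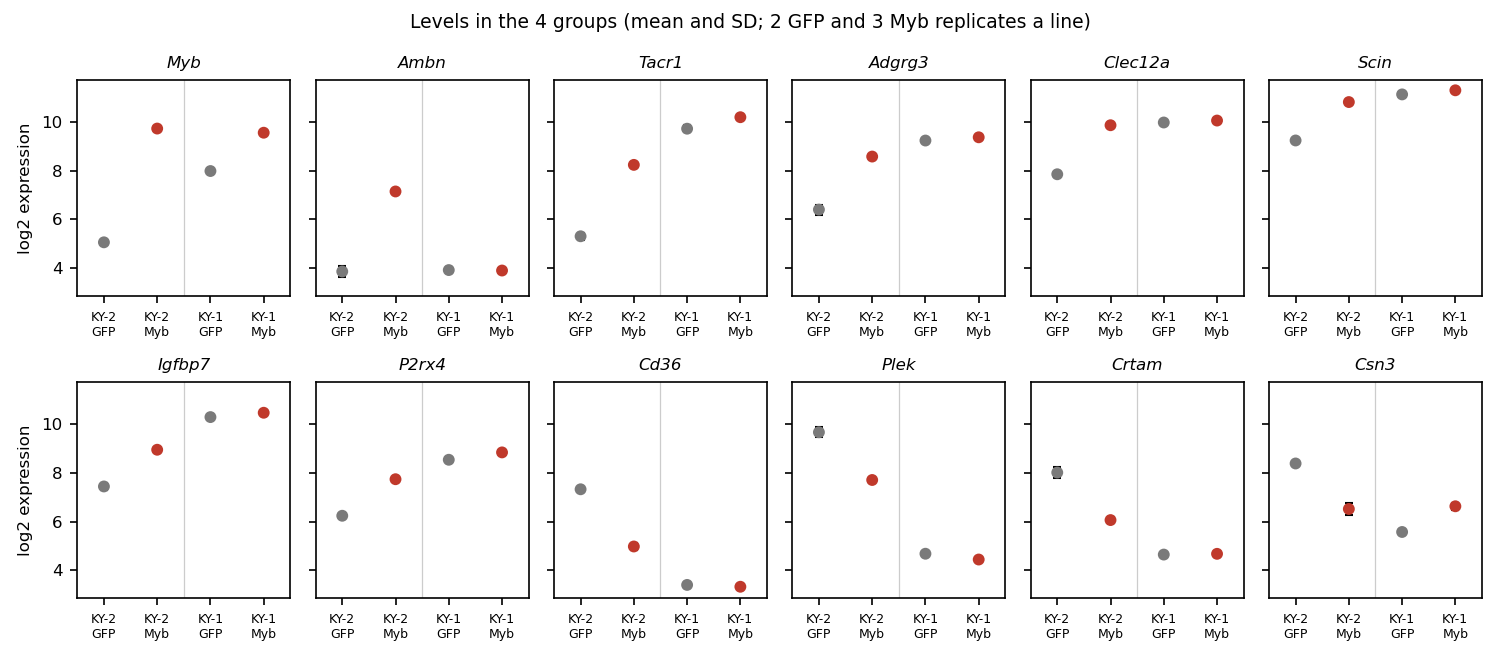
Log2 expression of 12 genes is given as mean and SD in KY-2 with GFP, KY-2 with Myb, KY-1 with GFP and KY-1 with Myb, with 2 GFP and 3 Myb replicates a line after near-identical KY-1 arrays were averaged; most SD bars are smaller than the points. Tacr1, Adgrg3, Clec12a, Scin, Igfbp7 and P2rx4 rise in KY-2 toward the higher values of KY-1, whereas Ambn is above 7 in KY-2 with Myb alone. The 12 genes were picked by hand.

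For other genes the effects of the lines were not distinguished. Heg1 rose by 1.36 ± 0.08 in KY-2 and 1.52 ± 0.08 in KY-1, with a difference of -0.16 ± 0.11 (adjusted p = 0.672). Ccl3 fell by 1.39 ± 0.12 in KY-2 and its KY-1 effect was -1.64 ± 0.12, with a difference of 0.25 ± 0.17 (adjusted p = 0.677). Klrb1a differed between lines by -0.69 ± 0.24 (adjusted p = 0.322), so that a difference of that size was not distinguished from 0. Ccl4 fell by more in KY-2, with a difference between lines of -0.75 ± 0.14 (adjusted p = 0.0354). Ccl5 and Csn3 went opposite ways, with KY-1 effects of 1.0 and 1.06 against -0.86 and -1.87 in KY-2.

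**Figure D5:**
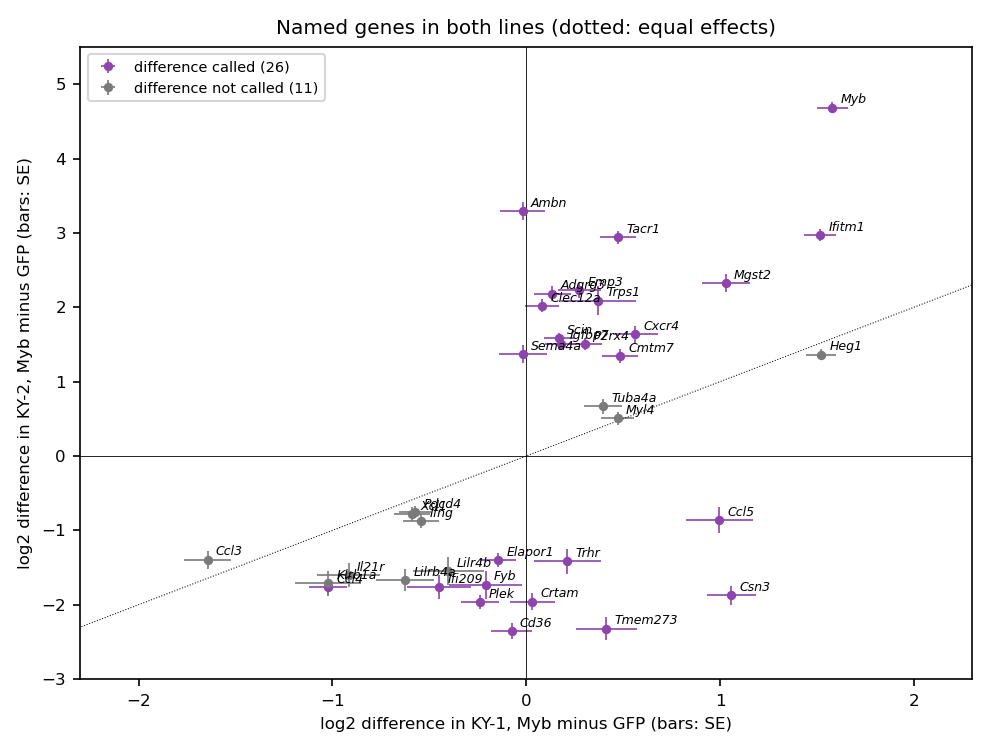
Each of the 37 genes is placed by its log2 difference, Myb minus GFP, in KY-1 (x axis) and in KY-2 (y axis), with SE bars and a dotted line at equal effects. The 37 were chosen in part for large changes in KY-2 or for a called difference, which raises the share of purple points. The 26 genes called for the difference between lines (purple) lie off the dotted line, and the 11 others (grey) lie on it or near it, as Heg1 and Ccl3, or farther off with wider errors, as Lilr4b.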

How the data were processed

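Each deposited value is the log2 expression of 1 probe set on 1 array. The submitters' processing notes name Partek and RMA, a method that corrects background, normalizes across arrays and combines the probes of a set, with no versions or options. Of 35556 probe sets, 21789 had 1 gene symbol, 1621 several and 12146 none in the annotation used, and for 999 genes with more than 1 probe set the brightest was used, which left 19938 genes with no filter on dim signals. KY-1 GFP replicates 1 and 2 and KY-1 Myb replicates 3 and 4 differed by robust SDs of only 0.0469 and 0.0433, against 0.102 to 0.131 between KY-2 arrays, and each of these KY-1 pairs entered as the mean of its arrays, as 1 sample.

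One linear model of the 4 group means over 10 replicates was fitted with limma 3.58.1 in R 4.3.3 (lmFit, contrasts.fit, eBayes), with Benjamini-Hochberg adjustment over all genes and a threshold of 0.05. The variance is shared with the KY-1 arrays, with 6 residual and 4.89 prior degrees of freedom. The code was tested on simulated data. The labels do not state that replicate numbers pair the KY-2 arrays, and no pairing entered this model. Genes were named by rule: Myb, the 15 largest called changes in each direction with a brighter group mean of at least 7, the 5 in each direction with a mean of at least 10, the 4 in each direction that differed most from KY-1, and the listed genes with the smallest p. For the 15 in each direction the Myb arrays were also required not to overlap the GFP arrays. Predicted genes, clones, small RNA genes and olfactory and vomeronasal receptors were left out of the ranked parts. The comparison, the 44 gene lists and these rules were chosen with earlier results of these data known. Alternatives covered the normalization, filter, variance model, replicates and probe sets.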

Additional observations from a re-analysis of the deposited data

Results flagged for a closer look

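For 55 of the 220 genes named or drawn from the lists, the Myb effect in KY-2 differed from that in KY-1, by limma's test of the difference itself at an adjusted p of 0.05 over all genes. Over all tested genes the share was 0.843%, and the 220 were chosen in part for large changes in KY-2 or large differences from KY-1, which raises their count. Of these 55, 28 had the higher effect in KY-2 and 27 the lower. Whether the difference of each gene stayed called with 1 array left out was not followed. Some of the 55, among them Ccl5, Cd7, Tigit, Itgax and Cd3d, lost their KY-2 call without at least 1 array. The values below are the log2 effect in KY-2 minus the log2 effect in KY-1, and the line and anything that goes with it cannot be told apart.

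Among the genes with the largest rises, the difference was 3.31 for Ambn, 3.11 for Myb, 2.72 for Tuba8, 2.47 for Tacr1, 2.05 for Adgrg3, 1.96 for Emp3 and 1.94 for Clec12a. It was 1.72 for Trps1, 1.45 for Ifitm1, 1.41 for Scin, 1.39 for Sema4a, 1.33 for Igfbp7, 1.30 for Mgst2, 1.20 for P2rx4, 1.07 for Cxcr4 and 0.86 for Cmtm7. Myb started from a lower level in KY-2, and the difference for Myb is that of the vector's own gene.

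Among lectin and adaptor genes it was 1.84 for Sh2d1a, 1.77 for Clec2i, 1.61 for Clec4d, 0.91 for Clec1b and 0.67 for Lat. Clec2i rose by 1.26 in KY-2 and its KY-1 effect was -0.51. Other genes with a higher effect in KY-2 were Fads2 (1.25), Il10 (0.90), Spn (0.86), Ikzf2 (0.84), Erg (0.84), Rora (0.83) and Il17ra (0.68). Fads2 rose by 0.76 in KY-2, and its KY-1 effect was -0.49.

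On the lower side, the difference was -2.93 for Csn3, -2.74 for Tmem273, -2.28 for Cd36, -1.99 for Crtam, -1.73 for Plek, -1.63 for Trhr, -1.53 for Fggy, -1.52 for Fyb, -1.31 for Ifi209 and -1.25 for Elapor1. Chemokine, granule, receptor and T cell marker genes on this side were Ccl5 (-1.86), Gzmd (-1.35), Gzmf (-1.27), Serpinb9b (-1.11), Prf1 (-1.0), Cd7 (-1.07), Ccl1 (-0.93), Ccl4 (-0.75), Tigit (-0.74), Cd3d (-0.84) and Cxcr3 (-0.82). The remaining ones were Zbtb32 (-1.34), Pik3ap1 (-1.22), Egr1 (-1.04), Myh10 (-1.01) and Gstt1 (-0.93).

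Itgax stood apart from these, since it rose in both lines. Its effect was 0.74 in KY-2 and 2.96 in KY-1, which left a difference of -2.21. Zbtb32 fell in KY-2 (-0.61) while its KY-1 effect was 0.73, and Cd7 fell (-0.46) while its KY-1 effect was 0.62.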

How the results depend on the processing

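In the KY-2 comparison, with 565 genes called (256 higher and 309 lower), the count lay within 1.5 times under a second quantile normalization, median centring, averaged probe sets, robust moderation, array weights and 12 separate arrays. It rose to 876 (506 lower) with only genes of at least 6 log2 in a group and to 888 (512 lower) with trended moderation. It fell to 61 (40 higher and 21 lower) when a change had to exceed 1.5-fold, to 346 (166 and 180) with KY-2 arrays alone, and to 355 (181 lower) over all 35556 probe sets, an alternative chosen after seeing the data, as was leaving out KY-1 arrays. Leaving out 1 replicate of either line gave 182 to 556 called, 102 to 251 higher and 80 to 305 lower. The difference from KY-1, with 168 genes called, gave 367 with the 6 log2 filter, 362 with trended moderation, 427 with 12 separate arrays, 29 with the 1.5-fold minimum, 93 over all probe sets, and 88 to 142 on leaving out 1 replicate.

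The share of higher calls, 45.3%, was 39.1% with median centring, 56% without GFP replicate 1 and 65.6% with the 1.5-fold minimum. Of 140 called genes followed, 39 kept the call in every setting they were tested in and 0 reversed. Same-numbered KY-2 arrays had deviations from their group means that correlated at -0.00502 (number 1) and 0.115 (number 2). With only 2 GFP arrays their deviations mirror each other, so these values cannot decide whether the numbers pair the arrays. With the replicate number as a block the counts were 443 over 12 arrays and 228 (106 higher and 122 lower) in KY-2 alone. For the difference from KY-1 the count was 186.

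The table has no detection calls, so low values have no measured background, and 230 called genes had both means under 7. Differences in KY-2 had a median SE of 0.107. The size of some differences shifted over the 17 other settings. It lay between 1.43 and 2.28 for Trps1, between 1.08 and 1.43 for Heg1 and between -1.43 and -1.09 for Fggy.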

Other observations

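Some gene families and neighbours outside the lists were looked at after their values were seen, so these are descriptions of what caught the eye. Of 33 C-type lectin genes with Clec symbols 5 rose and 0 fell, against 1.28% higher and 1.55% lower over all genes. The 5 were Clec12a, Clec4d, Clec4e (1.24 ± 0.13), Clec2i (1.26 ± 0.10) and Clec1b (0.65 ± 0.10). Clec4e, a receptor for damaged cells and mycobacterial glycolipid, read 7.66 and 7.42 in the GFP arrays and 8.53, 8.88 and 8.93 in the Myb arrays. Clec1b lost its call without GFP replicate 1 (adjusted p by limma = 0.064), and the other 4 held in all 5 fits that left out 1 KY-2 array. Of 8 Gimap genes, GTPases of lymphocyte survival, Gimap3 (-0.54 ± 0.07), Gimap7 (-0.38 ± 0.07) and Gimap6 (-0.35 ± 0.07) fell, against 1.55% lower over all genes. The adjusted p of Gimap3 stayed at or below 0.0487 without 1 array and those of the other 2 reached 0.262. Tmem176a and Tmem176b, beside Gimap3 on chromosome 6, fell by 0.78 ± 0.07 and 0.75 ± 0.09, and both calls held.

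Among Etv factors Etv4 rose (0.75 ± 0.11) beside Etv6, while Etv5 fell (-0.58 ± 0.11). Etv4 lost its call without GFP replicate 2 (adjusted p = 0.0573) and Etv5 without either GFP array (up to 0.239). Calhm5 and Calhm6, neighbours on chromosome 10, rose by 1.35 ± 0.13 and 0.39 ± 0.07, with adjusted p up to 0.00424 and 0.14 without 1 array. Serpinb1a, an inhibitor of neutrophil proteases, fell (-0.58 ± 0.08) and lost its call without GFP replicate 1 (0.0758).

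By position among 18556 placed protein-coding genes, 76 of 552 called ones stood next to another called in the same direction, in 35 runs of at most 3 genes, 15 higher and 20 lower. How many would do so with calls placed at random was not computed, so clustering was not tested. They included Ccl3 with Ccl4, Lilr4b with Lilrb4a, Ifitm1 with Ifitm2, Clec4d with Clec4e, Serpinb6b with Serpinb9 and Serpinb9b, Crtam with Ubash3b and Sorl1, and Jun with Fggy (-1.39 ± 0.18) and Hook1 (-0.84 ± 0.15). Hook1 lost its call without either GFP array (adjusted p up to 0.0936), Ubash3b and Sorl1 without any 1 array (up to 0.404), and Fggy held in all 5 fits. Several of these runs are families of similar sequence, where 1 probe set can read more than 1 member.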
